A study of Danio rerio with 20 samples.

Results

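Dexamethasone (DEX), a synthetic glucocorticoid (GC), was given continuously to eyeless, cortisol-poor rx3 strong mutants and to their wild-type siblings, and their transcriptomes were compared. The comparison held 8 of the 20 RNA-Seq libraries of the study, 4 from rx3 strong mutants (rx3 t25327/t25327) under DEX and 4 from wild-type siblings under DEX. The members were chosen by genotype and treatment label alone, and these 8 libraries share 1 library kit. Zebrafish larvae were raised in light and dark cycles of equal length at a constant temperature, received 25 µM DEX with DMSO as vehicle in E3 medium from the day after fertilization, and were collected at 5 dpf at the zeitgeber times ZT3, ZT9, ZT15 and ZT21, where ZT0 is lights on. Each genotype had 1 library per time point, made from 30 pooled whole larvae of pooled clutches, so the wild-type larvae are siblings of the mutants. Untreated libraries of wild-type siblings, rx3 strong mutants and rx3 weak mutants (rx3 t25181/t25181), 4 of each, served for the other comparisons. The weak allele is also eyeless but keeps normal cortisol levels. The alleles are separate fish lines, and their loss of eye transcripts differed in depth. Without DEX the median log2 difference of lens genes was -6.22 in strong and -3.00 in weak mutants. For photoreceptor genes it was -5.16 and -3.58. A difference between the alleles can therefore not be assigned to cortisol alone. The labels call the larvae without DEX untreated and give a mixed TU, AB and WIK background, while the methods describe a DMSO vehicle and AB fish. The untreated libraries were made with another kit, so treatment and kit cannot be told apart in any comparison that crosses them.

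The homeobox gene rx3 acts in the forebrain of the early fish embryo, where it specifies the eye field and takes part in forming the neighbouring hypothalamus and the pituitary. In the strong allele the corticotropes, the pituitary cells that make adrenocorticotropic hormone (ACTH), are severely reduced. Without ACTH the interrenal gland, the fish counterpart of the adrenal cortex, makes little cortisol. DEX binds the glucocorticoid receptor directly and so bypasses both pituitary and interrenal gland, and it does not replace the eye.

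The 8 libraries held between 12586879 and 49738048 counts on genes, and between 26118 and 29376 genes with at least 1 count. The 10 most abundant genes took between 6.76% and 12.4% of a library. Levels are given in CPM, the count of a gene relative to the depth of its library, after scaling for library composition and always in the order ZT3, ZT9, ZT15 and ZT21. Differences are log2 fold changes of rx3 strong over wild-type ± SE, over 4 libraries against 4, with the time point as a factor and 3 residual degrees of freedom. The SE was calculated back from the test, as the absolute log2 fold change over the square root of its F statistic. A gene was called at an adjusted p under 0.05 over all genes tested. Because the time points stood in for replicates, p-values rest on the spread of the genotype difference across the 4 time points. The test draws the spread of each gene toward that of the other genes, so it is not the gene's own spread alone. In this spread, differences between pools and a genotype difference that changes with the time of day cannot be told apart. A difference confined to some time points therefore widens it and is less easily called. In whole larvae, fewer cells of a type and less RNA per cell cannot be told apart. Fitted differences of genes with only a few counts in the mutants depend on the prior count of the fit.

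Across the genome the larger differences under DEX were mostly losses. Of 22609 genes tested, 786 (3.48%) were higher and 1002 (4.43%) were lower in rx3 strong mutants. Among the called genes, 264 were more than 2-fold higher and 672 more than 2-fold lower. All 4 mutant libraries lay above all 4 wild-type libraries for 2.31% of the genes tested, and below them for 4.52%. The direction was the same at all 4 time points for 778 of the higher and 992 of the lower genes, while the median of all genes was 0.01 on the log2 scale.

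The mutated gene itself was expressed at a low level. rx3 stood at 2.44, 1.45, 3.88 and 3.39 CPM in wild-type siblings and 1.69, 1.43, 1.37 and 1.27 CPM in rx3 strong mutants, and the mutant library at ZT3 lay within the wild-type range. The difference did not pass the test under DEX (log2 fold change -0.89 ± 0.30, adjusted p = 0.11), while rx3 was lower in untreated strong mutants (log2 fold change -1.06, adjusted p = 0.0010). With all 20 libraries in one fit the adjusted p under DEX was 0.02. The alleles were not read from these counts, so rx3 does not serve as a check of the labels here. The low level of eye transcripts separated the genotypes in every library.

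Photoreceptor genes were nearly absent from DEX-treated mutants. Of 63 genes on the photoreceptor list, 60 had enough counts for the test. Of these, 54 were lower and 0 higher (median -5.28 on the log2 scale), where 4.43% of all genes were lower. The summed level of the list was between 5551 and 12961 CPM in wild-type siblings and between 165 and 195 CPM in mutants. All 8 opsins of the list that were tested, a further rhodopsin copy included, were lower, with a median of -9.46, beside 46 of the 52 other photoreceptor genes tested. For 52 of the members tested every mutant library was below every wild-type library, which held for 4.52% of all genes tested.

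Rhodopsin, the rod pigment, shows the scale of the loss. rho stood at 1789.8, 783, 902 and 861 CPM in wild-type siblings and 1.41, 0.538, 1.37 and 1.31 CPM in rx3 strong mutants. The wild-type level was highest at ZT3, whereas all mutant libraries stayed below 1.5 CPM. This corresponds to a 930.1-fold lower mean level (log2 fold change -9.86 ± 0.28, adjusted p = 3.2e-08).

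The cone pigments behaved likewise. OPN1SW (ENSDARG00000045677), which encodes the short-wave cone opsin, stood at 2184, 1083, 873 and 1041 CPM in wild-type siblings and 1.05, 0.456, 0.617 and 0.961 CPM in rx3 strong mutants (log2 fold change -10.7 ± 0.26, adjusted p = 2.1e-08). The green cone opsin gene opn1mw1 had 428, 478, 407 and 155 CPM in wild-type siblings and 0.524, 0.456, 0.564 and 0.423 CPM in rx3 strong mutants (log2 fold change -9.52 ± 0.25, adjusted p = 2.8e-08). The red cone opsin gene opn1lw2 had 686, 676, 623 and 265 CPM in wild-type siblings and 0.403, 0.849, 1.29 and 0.654 CPM in rx3 strong mutants (log2 fold change -9.41 ± 0.32, adjusted p = 8.7e-08). The wild-type level of both opn1mw1 and opn1lw2 was lowest at ZT21, and the mutants were low at every time.

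Genes that act downstream of the opsins fell as well. GNAT2, the alpha subunit of cone transducin, stood at 589, 212, 174 and 549.8 CPM in wild-type siblings and 2.02, 0.932, 0.752 and 1.50 CPM in rx3 strong mutants (log2 fold change -8.1 ± 0.19, adjusted p = 2.1e-08). ARR3, cone arrestin, which ends the light response, stood at 2288, 409, 77.99 and 246 CPM in wild-type siblings and 6.89, 1.86, 0.805 and 1.04 CPM in rx3 strong mutants (log2 fold change -7.75 ± 0.30, adjusted p = 1.9e-07). Its wild-type level was highest in the library at ZT3 and lowest in that at ZT15. With 1 library per time point, time of day and library cannot be told apart here. The highest mutant library was still below the lowest wild-type library.

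The losses included the regulators of photoreceptor identity. crx (ENSDARG00000011989), a homeobox gene of photoreceptor differentiation, stood at 51.4, 21.8, 42.3 and 36.7 CPM in wild-type siblings and 0.967, 0.538, 1.02 and 0.461 CPM in rx3 strong mutants (log2 fold change -5.63 ± 0.20, adjusted p = 1.1e-07), with no overlap between the groups. The members that were not called were gnb1a, gnb1b, UNC119B, RGS9 (ENSDARG00000045156), SLC24A2 (ENSDARG00000063158) and guca1aa. guca1aa, a guanylate cyclase activator of photoreceptors, stood at 0.975, 0.272, 4.298 and 40.8 CPM in wild-type siblings and 0.484, 0.414, 0.403 and 0.692 CPM in rx3 strong mutants (log2 fold change -3.05 ± 0.88, adjusted p = 0.070). Its wild-type values rested mainly on the library at ZT21.

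Lens genes had the lowest median of the lists described here. Of 64 lens genes, 51 were tested, 48 were lower and 0 higher (median -7.51), where 4.43% of all genes were lower. Their summed level was between 1906 and 3749 CPM in wild-type siblings and between 13.0 and 25.8 CPM in mutants. The lens is built from fibre cells filled with crystallins, and gamma M crystallins are typical of the fish lens.

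All 20 gamma M2 crystallin genes tested were lower, between -9.25 and -5.15 on the log2 scale. crygm2d10 stood at 148, 114, 178 and 178 CPM in wild-type siblings and 0.403, 0.145, 0.537 and 0.615 CPM in rx3 strong mutants (log2 fold change -8.59 ± 0.23, adjusted p = 2.8e-08), so that every mutant library held less than 1 CPM. These genes are near-identical copies that can share reads, so the value of a single copy is uncertain. crygm5, another gamma crystallin gene, stood at 2.44, 2.53, 4.94 and 4.67 CPM in wild-type siblings and had 0 counts in every mutant library. With a floor of 3 counts over the 4 mutant libraries, it was at least 165.7-fold lower.

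The other lens components followed. The beta crystallins were lower for 11 of 12 genes tested (median -6.74). CRYAA, an alpha crystallin that acts as a chaperone, stood at 5.66, 8.18, 9.11 and 31.4 CPM in wild-type siblings and 0.202, 0.0207, 0.107 and 0.0769 CPM in rx3 strong mutants (log2 fold change -6.96 ± 0.45, adjusted p = 8.0e-06). Of the membrane and filament genes, 12 of 13 tested were lower. BFSP1, which encodes a beaded filament protein of lens fibres, stood at 9.07, 6.55, 7.84 and 23.3 CPM in wild-type siblings and 1.49, 1.201, 1.02 and 0.807 CPM in rx3 strong mutants (log2 fold change -3.16 ± 0.36, adjusted p = 5.2e-04), a smaller difference than the list median. lim2.2, CRYBB3 (ENSDARG00000041301) and crygm3 were not called. Among the 15 named genes with the largest falls, photoreceptor genes and gamma M crystallins were joined by SLC1A2 (ENSDARG00000052138; log2 fold change -8.65), a glutamate transporter gene.

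**Figure D1:**
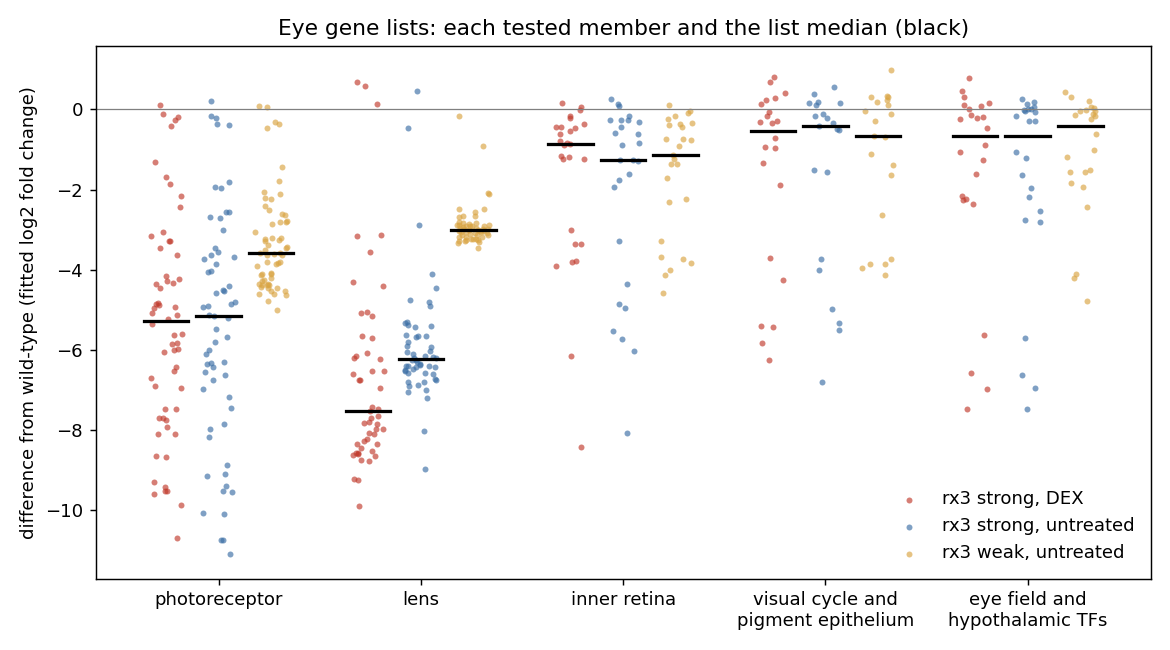
Fitted log2 fold change from wild-type siblings (vertical axis) for every tested member of 5 eye-related gene lists, in rx3 strong mutants under DEX, untreated rx3 strong mutants and untreated rx3 weak mutants; black bars are list medians. Under DEX the median was -5.28 for photoreceptor and -7.51 for lens genes, and between -0.86 and -0.53 for the other 3 lists.

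Genes of the inner retina and of the visual cycle were lower less completely, and these lists hold members with other sites of expression. Of 27 inner retina genes tested, 15 were lower and 0 higher (median -0.86), where 4.43% of all genes were lower. VSX1, a homeobox gene of bipolar cells, stood at 23.5, 11.9, 31.3 and 20.8 CPM in wild-type siblings and 0.0403, 0, 0.134 and 0.0769 CPM in rx3 strong mutants (log2 fold change -8.42 ± 0.32, adjusted p = 1.9e-07), with no overlap. The retinoschisin gene rs1a fell by 6.16 on the log2 scale, and atoh7, needed for retinal ganglion cells, fell by 3.77.

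Of 22 visual cycle and pigment epithelium genes, 10 were lower and 1 was higher, where the shares of all genes were 4.43% and 3.48%. rbp4l, a retinol-binding protein gene, stood at 1966, 285, 145 and 318 CPM in wild-type siblings and 21.8, 10.98, 3.84 and 2.38 CPM in rx3 strong mutants (log2 fold change -5.83 ± 0.39, adjusted p = 1.1e-05). RPE65 (ENSDARG00000007480), the isomerase that renews the chromophore, stood at 111, 25.7, 72.0 and 69.99 CPM in wild-type siblings and 6.41, 2.75, 3.44 and 8.34 CPM in rx3 strong mutants (log2 fold change -3.69 ± 0.24, adjusted p = 7.4e-06), and the groups did not overlap for either gene. The other RPE65 copies differed by 0.28 (ENSDARG00000094752) and 0.41 (ENSDARG00000054420) on the log2 scale and were not called. The higher member was DHRS3 (ENSDARG00000044982), a retinal reductase gene (log2 fold change 0.68 ± 0.13, adjusted p = 0.013), whose adjusted p was 0.075 without ZT9 and 0.064 without ZT15.

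Of 12 melanin synthesis genes, which skin melanophores also use, 2 were lower and 0 higher (median 0.17), where 4.43% of all genes were lower. Their summed level was between 208 and 563 CPM in wild-type siblings and between 235 and 388 CPM in mutants, lower in mutants at ZT3 and ZT15 and higher at ZT9 and ZT21. The lower ones were pmelb, a premelanosome protein gene, at 16.3, 3.89, 14.9 and 4.64 CPM in wild-type siblings and 0.161, 0.0621, 0.107 and 0.269 CPM in rx3 strong mutants (log2 fold change -5.96 ± 0.41, adjusted p = 1.3e-05), and TRPM1, an ion channel gene of melanocytes and bipolar cells (log2 fold change -3.8). Tyrosinase, tyr, differed by 0.4 and dct by -0.44 on the log2 scale, and neither was called.

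**Figure D2:**
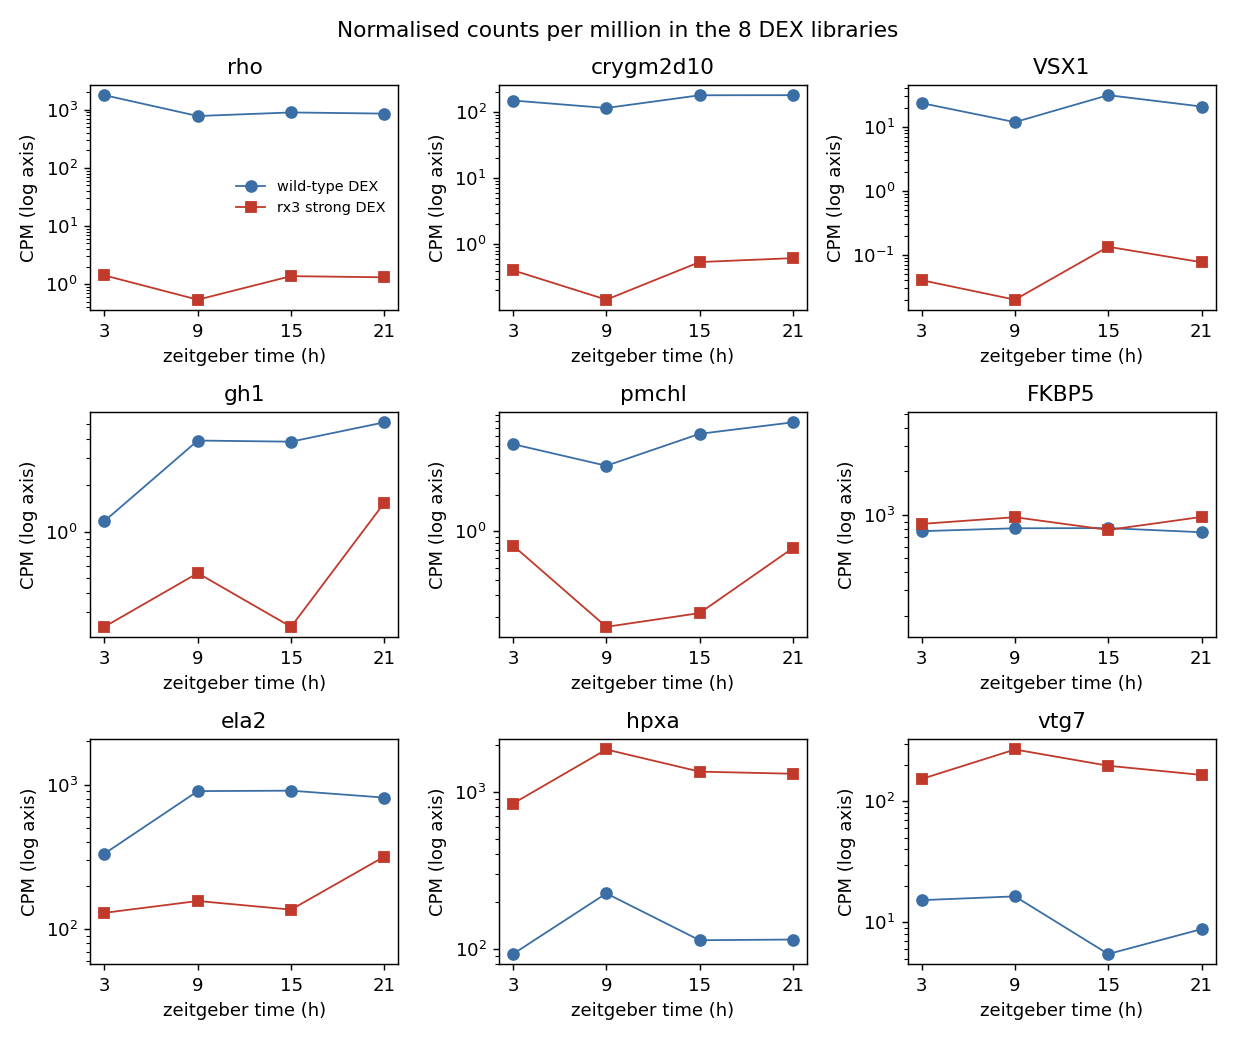
Normalised CPM on a log axis against zeitgeber time (h) for 9 genes in the 8 DEX libraries, 1 point per library, with values under 0.02 CPM drawn at 0.02. rho, crygm2d10 and VSX1 were far below wild-type at all 4 times, FKBP5 lay at 759 to 968 CPM in both genotypes, and hpxa and vtg7 were higher in mutants at all 4 times.

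Transcription factors of the eye field were low in the mutants. Of 24 eye field and hypothalamic transcription factors, all tested, 11 were lower and 0 higher (median -0.67), where 4.43% of all genes were lower. The rx3 relatives had large differences, with rx1 at 25.4, 10.4, 10.4 and 7.65 CPM in wild-type siblings and 0.121, 0.0621, 0.215 and 0.115 CPM in rx3 strong mutants (log2 fold change -6.58 ± 0.33, adjusted p = 1.2e-06) and rx2 at 7.802, 3.71, 8.29 and 5.22 CPM in wild-type siblings and 0.0806, 0, 0.0537 and 0.0769 CPM in rx3 strong mutants (log2 fold change -6.97 ± 0.40, adjusted p = 3.1e-06). six7, a regulator of cone identity in zebrafish, stood at 27.3, 12.4, 25.2 and 15.6 CPM in wild-type siblings and 0.161, 0.0828, 0.0805 and 0.115 CPM in rx3 strong mutants (log2 fold change -7.47 ± 0.25, adjusted p = 7.1e-08). For these genes no mutant library reached 0.25 CPM.

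Factors with wider roles in the forebrain were lowered less. PAX6 (ENSDARG00000045936) stood at 12.6, 7.57, 11.2 and 11.7 CPM in wild-type siblings and 3.305, 1.59, 2.34 and 1.96 CPM in rx3 strong mutants (log2 fold change -2.25 ± 0.18, adjusted p = 3.7e-05). The differences of VAX1 (-1.61) and VAX2 (-2.17), which pattern the ventral eye and optic stalk, and of FEZF2 (-1.27), a forebrain patterning gene, were called too. The hypothalamic regulators OTP, SIM1 and NKX2-1 were not called, and neither was SHH. foxg1b and CKMT2, named after their values were seen, were lower too. foxg1b, a forkhead gene of the forebrain and retina, stood at 55.2, 29.3, 36.3 and 41.1 CPM in wild-type siblings and 3.75, 4.89, 4.402 and 2.54 CPM in rx3 strong mutants (log2 fold change -3.35 ± 0.24, adjusted p = 1.9e-05). CKMT2, a mitochondrial creatine kinase gene, stood at 325, 95.2, 147 and 111 CPM in wild-type siblings and 32.97, 14.6, 6.36 and 11.96 CPM in rx3 strong mutants (log2 fold change -3.42 ± 0.27, adjusted p = 3.0e-05), and the groups did not overlap for either.

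On the pituitary list the hormones of the somatotropes and lactotropes were lower. Of 20 pituitary genes, 13 were tested, 4 were lower and 1 was higher, where the shares of all genes were 4.43% and 3.48%. Growth hormone, gh1, stood at 1.17, 3.89, 3.83 and 5.11 CPM in wild-type siblings and 0.242, 0.538, 0.242 and 1.54 CPM in rx3 strong mutants (log2 fold change -2.66 ± 0.36, adjusted p = 0.0018). The highest mutant library, at ZT21, overlapped the lowest wild-type library, at ZT3. Prolactin, prl, stood at 1.37, 2.81, 1.81 and 2.33 CPM in wild-type siblings and 0.121, 1.26, 0.322 and 0.346 CPM in rx3 strong mutants (log2 fold change -2.18 ± 0.37, adjusted p = 0.0065), and every mutant library was below every wild-type library.

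The corticotrope markers POMC, TBX19 and pcsk1 were not called. POMC, which encodes the ACTH precursor, stood at 2.54, 1.06, 1.64 and 1.98 CPM in wild-type siblings and 1.17, 1.51, 1.21 and 4.19 CPM in rx3 strong mutants (log2 fold change 0.08 ± 0.35, adjusted p = 0.94). The mutant library at ZT21 was the highest of the 8, and the other 3 lay within the wild-type range. TBX19, a factor of corticotropes, differed by -0.53 and pcsk1, which encodes a prohormone convertase, by -0.34 on the log2 scale. The other lower members were LHX4 (log2 fold change -1.01 ± 0.20, adjusted p = 0.013), a pituitary LIM-homeobox gene, and the gene matched to LHX3 (ENSDARG00000003803; log2 fold change -1.26, adjusted p = 0.013). The adjusted p of LHX4 was 0.063 without ZT15 and 0.057 without ZT21. The higher member, the orphan nuclear receptor gene nr4a1 (log2 fold change 0.57 ± 0.15, adjusted p = 0.046), had an adjusted p of 0.15, 0.16 and 0.069 without ZT3, ZT9 and ZT21.

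Among hypothalamic neuropeptides the clearest losses were those of melanin-concentrating hormone, which regulates pallor and feeding. Of 32 genes, 27 were tested, 4 were lower and 1 higher, and the median was -0.04. The shares of all genes were 4.43% and 3.48%. pmchl stood at 5.17, 3.44, 6.28 and 7.79 CPM in wild-type siblings and 0.766, 0.166, 0.215 and 0.731 CPM in rx3 strong mutants (log2 fold change -3.76 ± 0.34, adjusted p = 1.0e-04). PMCH stood at 2.15, 1.69, 2.51 and 3.998 CPM in wild-type siblings and 0.443, 0.331, 0.215 and 0.269 CPM in rx3 strong mutants (log2 fold change -2.98 ± 0.35, adjusted p = 5.9e-04). Both had no overlap between the groups. The remaining calls were close to the threshold: CARTPT (ENSDARG00000035852; log2 fold change -0.96 ± 0.25, adjusted p = 0.049), VIP (log2 fold change -0.7 ± 0.16, adjusted p = 0.027) and the higher GAL (log2 fold change 0.75 ± 0.18, adjusted p = 0.037), which encodes galanin. Without a time point, their adjusted p reached 0.17, 0.11 and 0.13. CRH, the hypothalamic driver of ACTH, was not called (log2 fold change -0.49 ± 0.23, adjusted p = 0.27).

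Of 15 genes of interrenal steroid synthesis, 9 were tested, 1 was lower and 0 were higher, where 4.43% of all genes were lower. cyp11c1, the enzyme of the last step to cortisol, stood at 2.44, 1.27, 11.1 and 12.8 CPM in wild-type siblings and 1.45, 0.725, 1.07 and 1.04 CPM in rx3 strong mutants (log2 fold change -2.27 ± 0.51, adjusted p = 0.024). Wild-type siblings reached their high levels at ZT15 and ZT21, while the mutants stayed below 1.5 CPM throughout and overlapped the wild-type library at ZT9. The call was lost without ZT15 (adjusted p = 0.12) or ZT21 (adjusted p = 0.065). Without DEX, cyp11c1 was lower in strong mutants (log2 fold change -3.06, adjusted p = 7.3e-06) and also in weak mutants (-2.45, adjusted p = 4.3e-05). The steroidogenic acute regulatory gene star differed by -0.16 and was not called.

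Of 38 GC receptor and target genes, all tested, 1 was higher and 5 were lower under DEX, where the shares of all genes tested were 3.48% (higher) and 4.43% (lower). The median was -0.12, and 3 were higher and 13 lower at an unadjusted p under 0.05. In untreated strong mutants 3 of the same 38 were higher and 17 lower (median -0.25), where the shares were 8.66% and 10.5%. In untreated rx3 weak mutants 3 were higher and 1 lower, where the shares were 6.08% and 7.96%. Both untreated comparisons share their wild-type libraries. The interaction of genotype and treatment, a test of whether the strong-allele difference under DEX differed from that without DEX, was positive for 6 and negative for 2 of the 38, against 1.46% and 0.851% of all genes tested.

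FKBP5, a co-chaperone of the GC receptor and a classic GC target, was called without DEX but not under it. Under DEX it stood at 772, 808, 811 and 759 CPM in wild-type siblings and 867, 964, 788 and 968 CPM in rx3 strong mutants (log2 fold change 0.18 ± 0.14, adjusted p = 0.54), and the groups overlapped. Without DEX it stood at 88.01, 77.9, 83.8 and 206 CPM in wild-type siblings, 16.1, 19.5, 11.4 and 8.205 CPM in strong mutants and 69.8, 112, 100.03 and 152 CPM in weak mutants. The untreated difference was -2.92 (adjusted p = 2.1e-07) for the strong and -0.03 for the weak allele, and the interaction was 3.1 ± 0.41 (adjusted p = 0.0019). NR3C1, the GC receptor gene, differed by 0.03, tsc22d3, another classic target, by 0.21, and pck1, a gluconeogenic enzyme gene, by -0.03 under DEX, none of them called.

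KLF9, a GC-induced Krüppel-like factor gene, was lower under DEX and, by more, without it. It stood at 90.8, 128, 146 and 135 CPM in wild-type siblings and 52.2, 80.8, 92.7 and 119.8 CPM in rx3 strong mutants (log2 fold change -0.57 ± 0.13, adjusted p = 0.030), so that the mutant libraries at ZT15 and ZT21 lay within the wild-type range. Its untreated difference was -2.03, and the interaction was 1.41 (adjusted p = 0.0022). The call under DEX was lost without ZT3, ZT9 or ZT15 (adjusted p = 0.11, 0.15 and 0.10).

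CISH and BCL6 separated the genotypes under DEX. CISH, an inhibitor of cytokine signalling, stood at 65.5, 39.6, 43.1 and 35.96 CPM in wild-type siblings and 9.23, 21.7, 13.5 and 11.7 CPM in rx3 strong mutants (log2 fold change -1.73 ± 0.26, adjusted p = 0.0033), with every mutant library below every wild-type library. BCL6, a transcriptional repressor gene, stood at 9.75, 12.2, 12.6 and 11.97 CPM in wild-type siblings and 22.4, 21.2, 27.3 and 30.4 CPM in rx3 strong mutants (log2 fold change 1.11 ± 0.14, adjusted p = 9.9e-04), with every mutant library above. Its untreated difference was 0.1 and the interaction 0.99 (adjusted p = 0.011). The lower members CEBPB (log2 fold change -0.92 ± 0.24, adjusted p = 0.044), LPIN1 (log2 fold change -0.47 ± 0.12, adjusted p = 0.045) and IRS2 (ENSDARG00000075282; log2 fold change -0.56 ± 0.15, adjusted p = 0.046) were close to the threshold, and without ZT9 their adjusted p was 0.11, 0.22 and 0.20. The list had between 1 and 3 lower members when any time point was left out.

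**Figure D3:**
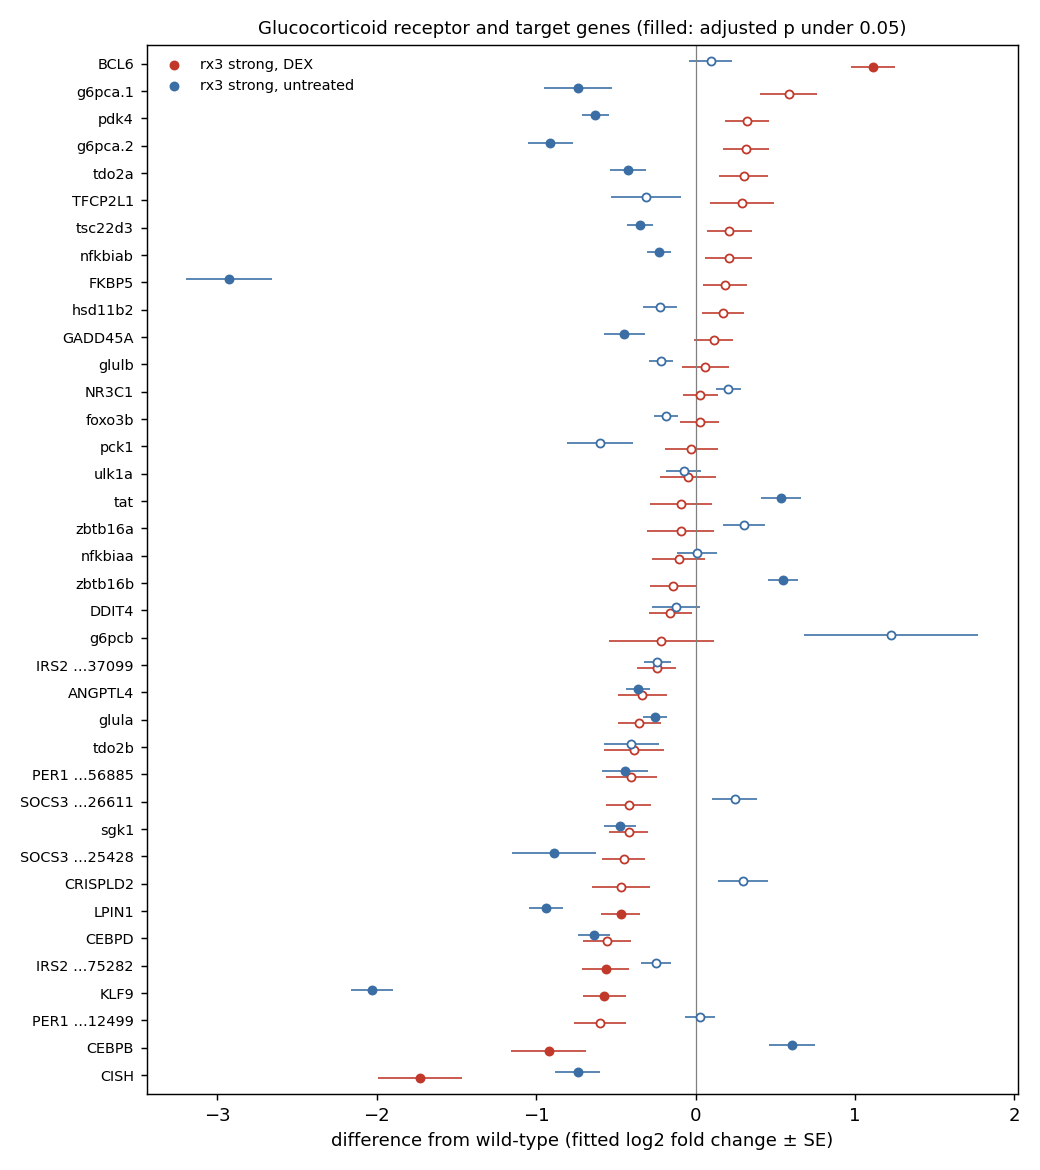
Fitted log2 fold change ± SE from wild-type siblings for the 38 GC receptor and target genes in rx3 strong mutants under DEX (red) and untreated (blue); filled points passed an adjusted p of 0.05. FKBP5 moved from -2.92 untreated to 0.18 under DEX and KLF9 from -2.03 to -0.57, while CISH was at -1.73 under DEX.

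Of 43 clock genes, 42 were tested, and 2 were lower and 0 higher under DEX (median -0.20), where 4.43% of all genes were lower. At an unadjusted p under 0.05, 11 were lower. In untreated strong mutants 17 were lower and 1 was higher, where 10.5% of all genes were lower, with a like median of -0.21. The interaction was positive for 3 and negative for 0 of them, against 1.46% and 0.851% of all genes tested. RORB, which encodes an orphan nuclear receptor of the clock and the retina, stood at 12.1, 12.6, 13.03 and 13.7 CPM in wild-type siblings and 7.78, 6.05, 6.47 and 7.61 CPM in rx3 strong mutants (log2 fold change -0.89 ± 0.15, adjusted p = 0.0057), without overlap. nr1d4a, a Rev-erb family gene, was the other lower member (log2 fold change -1.36 ± 0.32, adjusted p = 0.030) and lost its call without ZT9 (0.058), ZT15 (0.15) or ZT21 (0.18).

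The core genes were not called: PER2 differed by 0.24, CLOCK by -0.18 and NR1D1 by -0.28 on the log2 scale. PER1 (ENSDARG00000012499) was close to the threshold at -0.60 (adjusted p = 0.057, and 0.018 to 0.22 without 1 time point). cry5 differed by 0.68 (adjusted p = 0.063). Over the alternatives run, between 1 and 7 clock genes were lower. nfil3-6, a bZIP repressor gene of the clock output, differed by 0.02 under DEX and by -1.88 without DEX (interaction 1.86, adjusted p = 0.015). These values concern the mean level over the 4 time points and not the rhythm.

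On the list for the pineal gland, a light-sensitive organ outside the eye, some genes were lower. Of 10 pineal genes, 8 were tested, 3 were lower and 1 higher, where the shares of all genes were 4.43% and 3.48%. aanat2, the rate-limiting enzyme of pineal melatonin synthesis, stood at 2.73, 6.61, 17.5 and 6.22 CPM in wild-type siblings and 1.17, 1.72, 2.76 and 2.77 CPM in rx3 strong mutants (log2 fold change -1.81 ± 0.27, adjusted p = 0.0031). Wild-type siblings peaked at ZT15, where the mutants had 2.76 CPM, and the 2 highest mutant libraries overlapped the lowest wild-type library. Without DEX, aanat2 was lower in strong mutants (log2 fold change -1.44, adjusted p = 0.0033) and also in weak mutants (-1.26, adjusted p = 0.0090). In which tissue its transcripts were lost cannot be read from whole larvae. valopa, a deep-brain opsin gene, was lower (log2 fold change -1.38 ± 0.26, adjusted p = 0.012; adjusted p = 0.065 without ZT9). gch2, a GTP cyclohydrolase gene of pteridine synthesis, was higher (log2 fold change 1.14 ± 0.20, adjusted p = 0.0076).

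Of 16 non-visual opsins, 11 were tested, 4 were lower and 0 higher, where 4.43% of all genes were lower. OPN4 (ENSDARG00000007553), a melanopsin, stood at 22.04, 7.57, 8.56 and 11.97 CPM in wild-type siblings and 2.62, 1.698, 1.72 and 1.69 CPM in rx3 strong mutants (log2 fold change -2.58 ± 0.21, adjusted p = 3.5e-05), with no overlap. RRH, a peropsin gene of the pigment epithelium, was lower too (log2 fold change -3.29 ± 0.44, adjusted p = 0.0014). The calls of opn6b (log2 fold change -2.62 ± 0.53, adjusted p = 0.016) and tmtops2a (log2 fold change -1.16 ± 0.22, adjusted p = 0.012) were lost without ZT9 (0.083 and 0.061) or ZT15 (0.064 and 0.054).

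Digestive enzymes of the exocrine pancreas were lower in DEX-treated mutants, while in the untreated comparisons the list was split or higher. Of 18 exocrine genes, all tested, 12 were lower and 0 higher (median -1.03), where 4.43% of all genes were lower. In untreated strong mutants 4 were higher and 5 lower (median 0.05), where the shares of all genes were 8.66% and 10.5%. In untreated weak mutants 14 were higher and 1 lower (median 0.52), where the shares were 6.08% and 7.96%. The interaction was negative for 12 of the 18, against 0.851% of all genes tested. The summed level of the list was between 9563 and 16329 CPM in wild-type siblings and between 4551 and 11334 CPM in mutants, with the highest mutant value at ZT21.

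The elastases were lower at every time point. ela2 stood at 334, 905, 911 and 816 CPM in wild-type siblings and 130.1, 157, 137 and 319 CPM in rx3 strong mutants (log2 fold change -1.99 ± 0.25, adjusted p = 0.0011), with every mutant library below every wild-type library. Without DEX, ela2 stood at 325, 331, 448 and 687 CPM in wild-type siblings and 235, 305, 283 and 393 CPM in strong mutants, and the interaction was -1.51 (adjusted p = 0.017). The mutant level was highest at ZT21.

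ela3l stood at 799, 952, 951 and 879 CPM in wild-type siblings and 231, 201, 206 and 457 CPM in rx3 strong mutants (log2 fold change -1.8 ± 0.22, adjusted p = 8.3e-04), also with no overlap. Trypsin, prss1, stood at 2409, 2813, 3158 and 2763 CPM in wild-type siblings and 1251, 1753, 1328 and 2645 CPM in rx3 strong mutants (log2 fold change -0.74 ± 0.20, adjusted p = 0.061) and was not called. cel.2, a carboxyl ester lipase gene, differed by -0.53 under DEX and by 1.51 without DEX (interaction adjusted p = 0.0022). The number of lower exocrine genes was 7 without ZT3 or without ZT9, and the number of negative interactions fell to between 2 and 3 when ZT3, ZT9 or ZT15 was left out.

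**Figure D4:**
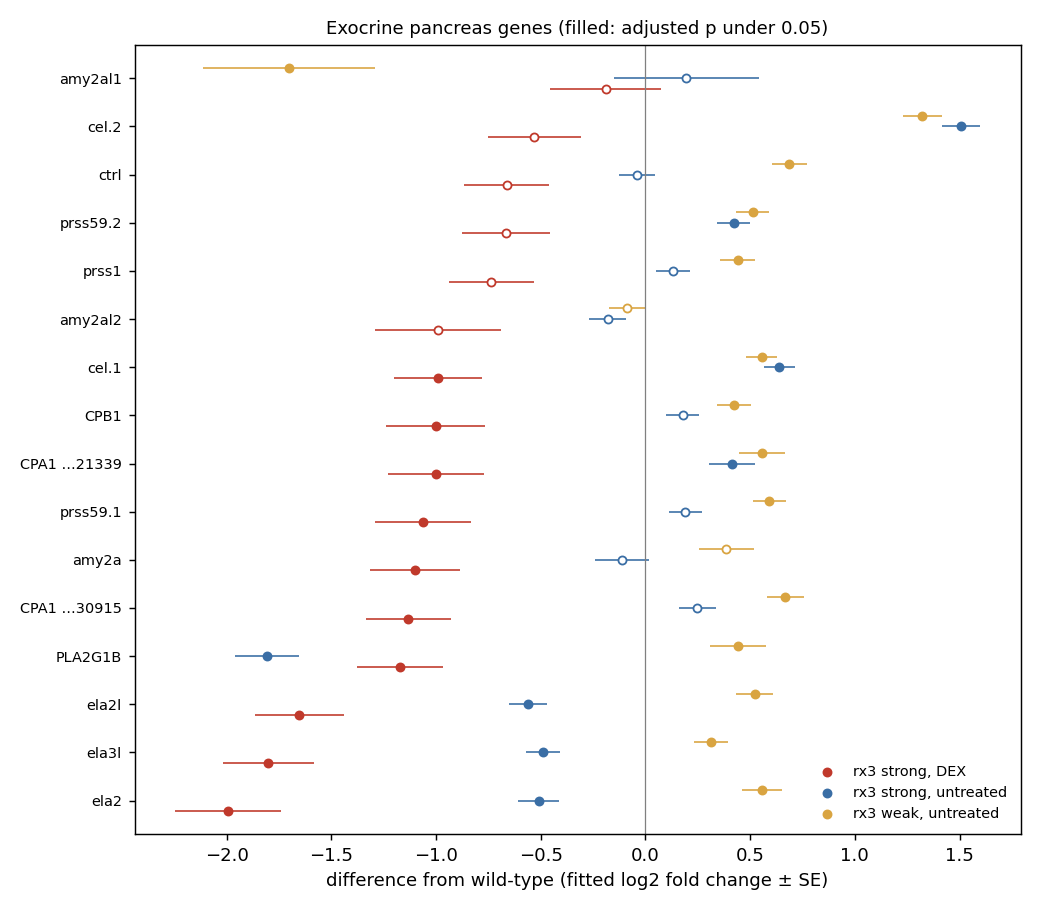
Fitted log2 fold change ± SE from wild-type siblings for 16 of the 18 exocrine pancreas genes in rx3 strong mutants under DEX (red), untreated rx3 strong mutants (blue) and untreated rx3 weak mutants (yellow); filled points passed an adjusted p of 0.05. Of the whole list, 12 genes were lower under DEX and 14 were higher in untreated weak mutants, where the shares of all genes were 4.43% and 6.08%. The values of ela2 were -1.99, -0.51 and 0.56.

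Of 19 enterocyte genes, 18 were tested, 2 were lower and 0 higher, where 4.43% of all genes were lower. These were fabp2, an intestinal fatty acid binding protein gene (log2 fold change -1.07 ± 0.22, adjusted p = 0.017; adjusted p = 0.070 without ZT3), and FABP1 (ENSDARG00000059227; log2 fold change -0.85 ± 0.14, adjusted p = 0.0053).

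Several of the largest rises were those of proteins that the liver secretes. Of 20 hepatocyte genes, all tested, 3 were higher and 0 lower (median 0.41), where 3.48% of all genes were higher, and 11 were higher at an unadjusted p under 0.05. In untreated strong mutants 11 were higher and 2 lower (median 0.37), where 8.66% of all genes were higher. Hemopexin, hpxa, a plasma protein that binds free heme, stood at 92.6, 226, 113 and 115 CPM in wild-type siblings and 846, 1871, 1351 and 1310.1 CPM in rx3 strong mutants (log2 fold change 3.33 ± 0.16, adjusted p = 8.4e-07). It was 10.1-fold higher in mean level, and the lowest mutant library was well above the highest wild-type library. Without DEX it was a gene of low level, at 1.08, 0.898, 0.639 and 2.39 CPM in wild-type siblings, 0.0584, 0.142, 0.653 and 0.520 CPM in strong mutants and 3.12, 1.703, 2.11 and 1.89 CPM in weak mutants. There the strong-allele difference was -1.79 (adjusted p = 0.017), and the interaction was 5.11 ± 0.44 (adjusted p = 1.1e-04).

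The other called liver genes changed less. VTN (ENSDARG00000053831), vitronectin, was higher (log2 fold change 0.69 ± 0.11, adjusted p = 0.0051), and so was CP, the copper carrier ceruloplasmin (log2 fold change 0.74 ± 0.16, adjusted p = 0.023; adjusted p = 0.088 without ZT15 and 0.053 without ZT21). The liver markers fabp10a (0.1) and tfa (0.58), which encodes transferrin, were not called.

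Vitellogenins, yolk precursors that the liver makes under estrogen, had the largest rises among the genes named by size. They were grouped after their values were seen, and 3 of 4 tested were higher (median 4.07). vtg7 stood at 15.2, 16.4, 5.45 and 8.76 CPM in wild-type siblings and 153, 269, 197 and 166 CPM in rx3 strong mutants (log2 fold change 4.21 ± 0.27, adjusted p = 7.6e-06). vtg5 stood at 0.195, 1.15, 0.603 and 0.233 CPM in wild-type siblings and 6.13, 24.1, 5.61 and 5.77 CPM in rx3 strong mutants (log2 fold change 4.09 ± 0.29, adjusted p = 1.4e-05). Every mutant library was above every wild-type library for both, while the mutant value of vtg5 at ZT9 stood apart from the other 3.

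The untreated difference of vtg7 was 1.51 in strong and -0.18 in weak mutants, and the interaction was 2.7 (adjusted p = 0.0023). vtg4 was higher (log2 fold change 4.05 ± 0.52, adjusted p = 0.0011) and vtg3 was not called (-0.85). The vitellogenin genes share sequence, so reads may be divided among copies. Of 2 further genes with a link to estrogen, the receptor gene esr1 differed by -0.51 and was not called. cyp19a1b, brain aromatase, which makes estrogen in radial glia, was higher (log2 fold change 1.87 ± 0.31, adjusted p = 0.0054). It stood at 0.0975, 0.392, 0.434 and 0.671 CPM in wild-type siblings and 1.05, 1.33, 1.58 and 2.04 CPM in rx3 strong mutants, and the groups did not overlap. Without DEX, cyp19a1b was also higher, by 1.39 in strong (adjusted p = 2.7e-04) and 1.33 in weak mutants (adjusted p = 5.5e-04). Its interaction was 0.41 (adjusted p = 0.73).

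Other genes with large rises encode a hormone and plasma proteins. pth1a, a parathyroid hormone gene, stood at 0.683, 0.513, 0.4902 and 0.7005 CPM in wild-type siblings and 2.22, 3.33, 3.73 and 4.69 CPM in rx3 strong mutants (log2 fold change 2.61 ± 0.27, adjusted p = 2.8e-04), with no overlap. apcs, serum amyloid P component, stood at 23.8, 19.8, 5.56 and 5.87 CPM in wild-type siblings and 80.8, 85.1, 40.8 and 57.6 CPM in rx3 strong mutants (log2 fold change 2.5 ± 0.24, adjusted p = 1.4e-04), and serpina7, a serpin gene, rose by 1.93 on the log2 scale. The transporter gene abcg2b (2.42) and the keratin gene krt1-19e (2.2) were among the 15 named genes with the largest rises as well. zgc:174259, si:ch211-229n2.6, jac11, si:ch73-196i15.3 and si:ch211-151h10.2 lay between 2.04 and 2.24, and the unnamed ENSDARG00000097885 and ENSDARG00000011168 at 2.4 and 2.03. C18H15orf48 rose by 1.93, but its adjusted p was 0.067 without ZT9 and 0.072 without ZT15.

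Red blood cell genes were moderately higher. Of 13 erythrocyte genes, 10 were tested, 6 were higher and 0 lower (median 0.61), where 3.48% of all genes were higher. In untreated strong mutants 1 was higher, where 8.66% of all genes were higher. The interaction was positive for 0 and negative for 0 of the 10 (median 0.45), against 1.46% and 0.851% of all genes tested. hbae1.1, an alpha globin gene, stood at 45.6, 32.5, 19.8 and 17.9 CPM in wild-type siblings and 87.8, 50.98, 37.4 and 33.6 CPM in rx3 strong mutants (log2 fold change 0.85 ± 0.12, adjusted p = 0.0018). SLC4A1 (ENSDARG00000012881), the anion exchanger of the red cell membrane, stood at 52.1, 41.2, 36.97 and 32.9 CPM in wild-type siblings and 95.2, 64.2, 54.2 and 54.2 CPM in rx3 strong mutants (log2 fold change 0.69 ± 0.11, adjusted p = 0.0054), with no overlap. The level of hbae1.1 declined from ZT3 to ZT21 in both genotypes, so its groups overlapped although the mutant was higher at each time. alas2, the first enzyme of heme synthesis in red cells, was called (log2 fold change 0.62 ± 0.12, adjusted p = 0.013) but not without ZT3 (0.055) or ZT15 (0.060). The count of higher members was 3 when ZT3 or ZT15 was left out.

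A few inflammatory genes were lower in the treated mutants. Of 20 inflammation and complement genes, all tested, 1 was higher and 3 were lower, where the shares of all genes were 3.48% and 4.43%. il1b, the cytokine interleukin 1 beta, stood at 12.9, 39.6, 30.03 and 49.7 CPM in wild-type siblings and 4.43, 14.4, 8.99 and 1.38 CPM in rx3 strong mutants (log2 fold change -2.28 ± 0.51, adjusted p = 0.025; adjusted p = 0.059 without ZT3 and 0.060 without ZT15). ptgs2a, a prostaglandin synthase gene, stood at 56.9, 111, 59.3 and 77.9 CPM in wild-type siblings and 42.04, 41.1, 35.5 and 29.3 CPM in rx3 strong mutants (log2 fold change -1.01 ± 0.18, adjusted p = 0.0081), with every mutant library below. The third was il11a (log2 fold change -2.85 ± 0.48, adjusted p = 0.0061). The higher member, c3a.2 of the complement system, stood at 33.1, 59.04, 25.4 and 27.7 CPM in wild-type siblings and 101, 129, 102 and 88.01 CPM in rx3 strong mutants (log2 fold change 1.6 ± 0.15, adjusted p = 1.4e-04), with every mutant library above.

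Of 25 neutrophil and macrophage genes, 24 were tested, 3 were higher and 2 lower, where the shares of all genes were 3.48% and 4.43%. Both lower ones were matrix metalloproteinases. mmp13a, a collagenase gene, stood at 73.6, 297, 141 and 292 CPM in wild-type siblings and 31.9, 63.3, 22.8 and 12.4 CPM in rx3 strong mutants (log2 fold change -2.62 ± 0.44, adjusted p = 0.0061), with no overlap and an interaction of -2.97 (adjusted p = 0.024). Its untreated levels were 2.43, 2.33, 4.58 and 1.59 CPM in wild-type siblings and 3.79, 2.61, 3.62 and 3.29 CPM in strong mutants. These lay below every DEX library of either genotype. MMP9, a gelatinase gene, stood at 92.4, 356, 239 and 306 CPM in wild-type siblings and 75.4, 72.3, 61.5 and 14.9 CPM in rx3 strong mutants (log2 fold change -2.2 ± 0.52, adjusted p = 0.032), and lost its call without ZT9 (0.10) or ZT15 (0.094). Among the DEX libraries both were lowest in the mutant library at ZT21. The higher members were LECT2 (ENSDARG00000033227; log2 fold change 0.85 ± 0.17, adjusted p = 0.016), MPEG1 (ENSDARG00000043093; log2 fold change 0.73 ± 0.18, adjusted p = 0.038), a macrophage gene, and npsn (log2 fold change 0.49 ± 0.12, adjusted p = 0.030), a neutrophil gene. Without ZT9, MPEG1 had an adjusted p of 0.15 and npsn of 0.15.

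Of 19 skin and ionocyte genes, 3 were higher and 0 lower (median 0.36), where 3.48% of all genes were higher, and 7 were higher at an unadjusted p under 0.05. Their summed level was 8921, 6664, 3834 and 3840.4 CPM in wild-type siblings and 13474, 9089, 7707 and 9882 CPM in rx3 strong mutants, higher in the mutants at each of the 4 time points. The basal keratin gene krt5 stood at 1595, 682, 294 and 371 CPM in wild-type siblings and 3449, 1630.2, 1263 and 2377 CPM in rx3 strong mutants (log2 fold change 1.78 ± 0.26, adjusted p = 0.0026), and the groups overlapped through the high wild-type library at ZT3. krt91 (log2 fold change 1.3 ± 0.26, adjusted p = 0.016; 0.068 without ZT15) and grhl3 (log2 fold change 0.76 ± 0.18, adjusted p = 0.030; 0.090 without ZT9) were the others. Of 12 iridophore and xanthophore genes, 2 were higher and 1, pnp4a of purine synthesis in iridophores, was lower (log2 fold change -1.62 ± 0.27, adjusted p = 0.0056). The share of lower genes among all genes was 4.43%.

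In skeletal muscle 2 of 29 genes were higher and 0 lower under DEX (median 0.29), and 9 were higher at an unadjusted p under 0.05. In untreated strong mutants 21 were higher (median 0.40) and in untreated weak mutants 14 (median 0.24), where the shares of all genes were 8.66% and 6.08%, against 3.48% under DEX. The interaction was positive for 1 and negative for 1 of them, against 1.46% and 0.851% of all genes tested. CASQ1 (ENSDARG00000038716), the calcium store protein calsequestrin, stood at 128, 44.4, 20.8 and 31.8 CPM in wild-type siblings and 256, 118, 55.6 and 131 CPM in rx3 strong mutants (log2 fold change 1.47 ± 0.17, adjusted p = 5.1e-04). The other, TNNI2 (ENSDARG00000013752; log2 fold change 0.96 ± 0.22, adjusted p = 0.027), lost its call whichever time point was left out. Of the 26 cell cycle genes 0 were called higher and 0 lower by edgeR's test (median 0.18), with 3 higher and 0 lower at an unadjusted p under 0.05 and 0 called by DESeq2 or limma-voom. Of 29 stress and immediate early genes tested, 1 was higher and 1, JUNB, lower (log2 fold change -0.63 ± 0.15, adjusted p = 0.037, and 0.13 without ZT9). These counts were near the shares of all genes, 3.48% higher and 4.43% lower.

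**Figure D5:**
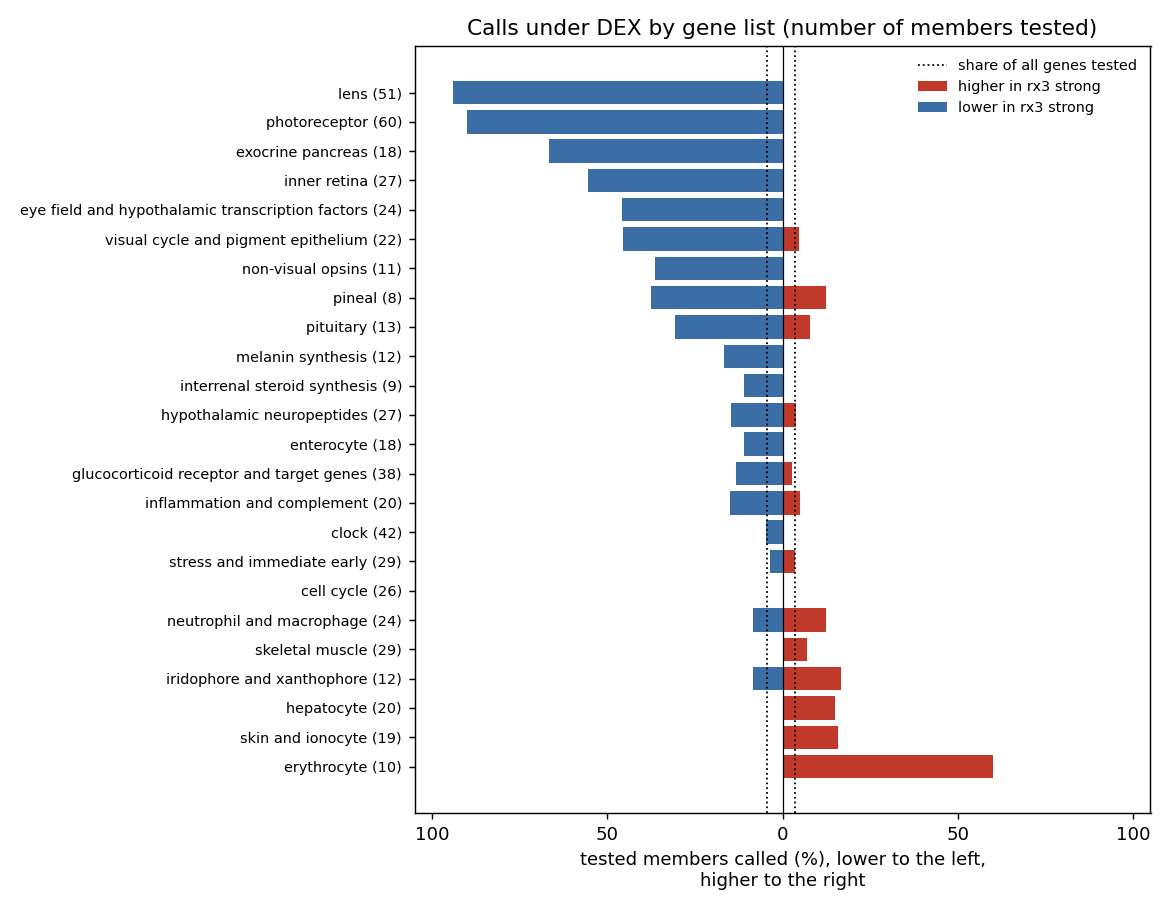
Share of tested members of each gene list called lower (blue, left) or higher (red, right) in rx3 strong mutants under DEX, with the number tested in brackets; dotted lines mark the shares over all genes, 4.43% lower and 3.48% higher. Lens (48 of 51) and photoreceptor (54 of 60) genes had the largest lower shares, and erythrocyte genes (6 of 10) the largest higher share.

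A count of 0 called members in a direction refers to edgeR's test. At an unadjusted p under 0.05, 0 photoreceptor, inner retina, interrenal, non-visual opsin and exocrine genes, 1 lens, melanin and transcription factor gene each, 2 enterocyte and 3 clock genes were higher, and 2 hepatocyte, 1 skin, 0 muscle and 0 erythrocyte genes were lower. DESeq2 and limma-voom also called 0 in these directions, apart from clock (2 and 1 higher) and hepatocyte genes (1 and 1 lower).

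The study's metabolic gene list, which it used for these same samples, had shares of called genes close to those of all genes. Of 643 genes, 624 were tested, 30 were higher and 22 lower (the background shares were 3.48% and 4.43%), with a median of 0.05. In untreated strong mutants 623 were tested, 89 were higher and 116 lower, where the background shares were 8.66% and 10.5%. In glycolysis and gluconeogenesis 9 of 76 genes were higher and 5 lower, and in pyruvate metabolism 6 of 44 were higher and 1 lower. The muscle type phosphofructokinase genes pfkma (log2 fold change 0.89 ± 0.17, adjusted p = 0.012) and pfkmb (log2 fold change 0.94 ± 0.15, adjusted p = 0.0040) were among the higher ones. pfkma differed by -0.59 without DEX, with an interaction of 1.46 (adjusted p = 0.0038).

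The deepest falls on the metabolic list included genes known from the retina and the neuroendocrine axis. guk1b, a guanylate kinase gene, stood at 32.1, 15.9, 57.1 and 26.2 CPM in wild-type siblings and 0.846, 0.393, 1.18 and 0.692 CPM in rx3 strong mutants (log2 fold change -5.37 ± 0.17, adjusted p = 5.5e-08), with no overlap. aanat1, which acts in melatonin synthesis in the fish retina, fell by 3.45 on the log2 scale, and cyp11c1 and aanat2 appeared here again. pdha1b (-4.57), a pyruvate dehydrogenase subunit gene, and nme2a (-4.46), a nucleoside diphosphate kinase gene, were the others under -4. otc, an enzyme of the urea cycle, was at -1.85 under DEX and -4.27 without DEX (interaction adjusted p = 0.034). The higher metabolic genes also included asl of the urea cycle (0.98), and alpi.1 (0.9) and pkmb (0.84), which were not called without ZT15 (adjusted p = 0.058 and 0.062).

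A large part of the genes called under DEX was also called in untreated mutants. Over 21492 genes tested in both, 721 of 968 lower genes (74.5%) were also lower in untreated strong mutants, where they made up 31.6% of the lower genes. For higher genes the number was 278 of 753 (36.9%), or 14.8% of those higher without DEX. With the weak allele 632 lower genes (65.3%) and 180 higher genes (23.9%) were shared. Over all genes tested without DEX, 10.5% were lower and 8.66% higher in strong mutants, and 7.96% lower and 6.08% higher in weak mutants. Called in neither untreated comparison were 200 of the lower (20.7%) and 347 of the higher genes (46.1%). The DEX libraries share no library with the untreated ones, but treatment and kit differ between the comparisons, and the difference between the shares of higher and lower genes was not tested.

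The interaction test named genes whose genotype difference depended on the treatment or the kit. Of 22809 genes tested, 332 were positive and 194 negative. Among the genes named by size, the largest positive value was that of si:dkey-7c18.24, which stood at 28.8, 56.4, 141 and 64.9 CPM in wild-type siblings and 166, 296, 309 and 231 CPM in rx3 strong mutants. Its untreated levels were 2.75, 3.65, 2.02 and 6.37 CPM in wild-type siblings and 0.584, 0.189, 0.251 and 0 CPM in strong mutants. The difference was 1.97 under DEX and -3.77 without DEX (interaction 5.71, adjusted p = 3.1e-04), and the untreated value rests on few counts. zgc:153932 differed by 1.37 and -3.23 (interaction adjusted p = 1.2e-05). Its untreated levels were 9.34, 7.36, 10.9 and 11.1 CPM in wild-type siblings and 1.81, 0.758, 1.06 and 0.520 CPM in strong mutants. foxg1b, expressed in forebrain and retina, was at -3.35 under DEX and at -7.2 without it (interaction 3.84, adjusted p = 9.7e-04). Its untreated levels were 27.5, 25.8, 24.1 and 28.1 CPM in wild-type siblings and 0.234, 0.142, 0.201 and 0.116 CPM in strong mutants. Whole-larva counts do not show in which tissue its remaining transcripts lie.

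Among negative interactions, tnfaip2b, a gene induced by tumour necrosis factor, was at -2.26 under DEX and 0.69 without it. SDR42E2, a short-chain dehydrogenase gene, was at 0.62 and 3.2. It stood at 9.23, 11.97, 8.94 and 6.32 CPM in untreated wild-type siblings and 81.1, 81.0, 84.7 and 84.7 CPM in untreated strong mutants. Of 55 lens genes tested, 14 had a negative and 1 a positive interaction, where the shares of all genes were 0.851% and 1.46%. Of the negative ones, 13 were gamma M2 crystallins, near-identical copies that can share reads and so are not separate observations. Their mutant levels under DEX were very low, as for crygm2d18 at 0 to 0.0769 CPM, and the fitted differences depend on few counts. For crygm2d10 the difference was -8.59 under DEX and -6.41 without it, with mutant levels of 0.403, 0.145, 0.537 and 0.615 CPM and 4.32, 2.84, 2.66 and 5.26 CPM respectively. The number of negative lens interactions was 8 or 9 when ZT3 or ZT15 was left out.

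A last comparison set the strong-allele difference under DEX against the weak-allele difference without DEX, each relative to the wild-type libraries of the same treatment. Of 22954 genes tested, 467 (2.03%) were higher and 646 (2.81%) lower. Eye transcripts were lower than with the weak allele for 35 photoreceptor and 43 lens genes. The weak mutants kept some rho, at 43.1, 47.9, 57.96 and 33.5 CPM against 626, 718, 639.5 and 577 CPM in untreated wild-type siblings (difference from the strong allele under DEX -6.06, adjusted p = 1.0e-09). Of the 18 exocrine genes 16 were lower and 0 higher.

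Of 15 pituitary and 27 neuropeptide genes tested, 2 each were lower in this comparison, where 2.81% of all genes were lower. Allele, fish line, treatment and library kit all differ in it. The weak-allele difference of gh1 was -0.03 and that of the strong allele under DEX -2.66 (adjusted p of the difference 3.6e-04). For pmchl these values were -1.19 and -3.76 (adjusted p = 0.0031), and for PMCH -1.02 and -2.98 (adjusted p = 0.031). Of the GC target genes, 1 was higher and 4 were lower, CISH among them (adjusted p = 0.0012). zgc:92590, the lowest of the genes named by size here, stood at 6.63, 3.77, 17.04 and 16.9 CPM in wild-type siblings and 0.161, 0.0828, 0.161 and 0.269 CPM in rx3 strong mutants under DEX. It was lower in strong mutants with and without DEX (-5.97 and -4.96) and higher in weak mutants (1.61). Among the higher genes named by size, sc:d217 was at 0.06 and 0.56 in strong mutants with and without DEX and at -4.16 in weak mutants. For vtg7 these values were 4.21, 1.51 and -0.18. A higher value here can thus lie in the weak mutants alone.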

How the data were processed

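RNA was extracted from pools of 30 larvae and sequenced as mRNA libraries, 1 per genotype, treatment and time point. The authors aligned the reads to the Zv9 genome with STAR and counted uniquely mapped reads on Ensembl gene models with HTSeq, and the deposited counts were used without further change. The deposited log2 table, which the authors made with DESeq2 by normalization and a variance stabilizing transformation, served only as an alternative. Of 32512 genes in the count table, 22156 could be named, 1888 from the study's tables and 20268 from a reference name table, and capital symbols with several copies are given with their Ensembl identifier. No genome sequence was used here, so no coordinates or sequences are shown. A few list members are counted but not reported by name here.

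Counts were scaled by TMM, filtered for low counts by edgeR's rule and tested with edgeR's quasi-likelihood test (edgeR 4.0.16, limma 3.58.1, R 4.3.3) with the time point as a factor, and p-values received the Benjamini-Hochberg adjustment over all genes tested. One fit held the 8 DEX libraries and another the 12 untreated ones. For the interaction of genotype and treatment, 16 libraries were fitted with a factor for each time point of each treatment, and the comparison with the weak allele used both wild-type groups as references. With 1 library per genotype and time point no spread can be estimated at a time point, and an exact permutation test of 4 libraries against 4 cannot go below p = 0.0286. The code was tested on simulated counts with known changes.

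Gene lists for eye, brain, endocrine, clock, tissue and metabolic genes were described by their counts of called genes and medians beside those of all genes. The members and lists were chosen with earlier results of these data known. The text names genes on which a list's description turns. By name or by group it gives the 15 largest rises and falls among called genes. These had a mean of at least 50 counts and the same direction at every time point. The largest interactions were taken by the same rule. On the metabolic list only some of the largest changes are named. Other groups are said to have been formed after values were seen. Alternatives were other scalings, filters, spread estimates and tools (DESeq2 1.42.0, limma-voom, limma on the deposited log2 table), libraries thinned to equal depth, each time point left out, no time term, a cosine and sine of 24 h, and a fit of all 20 libraries. Overlapping genes and near-identical copies cannot be told apart in such counts.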

Additional observations from a re-analysis of the deposited data

Results flagged for a closer look

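A library that stood far from the other 3 of its group was looked for in 345 groups of 4 DEX libraries over the 189 genes examined, and 27 were found. The cutoff would flag about 1 in 20 independent groups of normally distributed values. These groups come from the same 8 libraries, and part of the genes were picked for large values. The number found is therefore only a description. Since each library is another time point, such a value can be a time of day as well as a library, and which of these it is was not tested. By time point, 13 of the 27 were at ZT3, 5 at ZT9, 0 at ZT15 and 9 at ZT21.

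In wild-type siblings, the library at ZT3 was above the others for OPN1SW (ENSDARG00000045677) at 2184 CPM against 873 to 1083 CPM, rho at 1789.8 CPM against 783 to 902 CPM, si:ch211-152c2.3 at 4.68 CPM against 1.58 to 1.93 CPM and alpi.1 at 14.3 CPM against 8.27 to 8.78 CPM. The same held for ARR3 at 2288 CPM against 77.99 to 409 CPM, rbp4l at 1966 CPM against 145 to 318 CPM, tyrp1b at 197 CPM against 53.3 to 72.1 CPM and pmela at 173 CPM against 64.6 to 79.3 CPM. The same held for rx1 at 25.4 CPM against 7.65 to 10.4 CPM. At ZT3 it was below them for ela2 at 334 CPM against 816 to 911 CPM. At ZT9 it was above them for hpxa at 226 CPM against 92.6 to 115 CPM and hsp70l at 62.6 CPM against 12.2 to 18.5 CPM. At ZT9 it was below them for LHX4 at 3.801 CPM against 7.18 to 7.51 CPM. At ZT21 it was above them for guca1aa at 40.8 CPM against 0.272 to 4.298 CPM, CRYAA at 31.4 CPM against 5.66 to 9.11 CPM and BFSP1 at 23.3 CPM against 6.55 to 9.07 CPM. At ZT21 it was below them for opn1lw2 at 265 CPM against 623 to 686 CPM.

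In rx3 strong mutants, the library at ZT3 was above the others for crygm2f at 0.0403 CPM against 0 CPM in each of the others, OPN4 (ENSDARG00000007553) at 2.62 CPM against 1.69 to 1.72 CPM and alas2 at 50.7 CPM against 28.7 to 32.4 CPM. At ZT9 it was above them for vtg5 at 24.1 CPM against 5.61 to 6.13 CPM. At ZT9 it was below them for rho at 0.538 CPM against 1.31 to 1.41 CPM. At ZT21 it was above them for POMC at 4.19 CPM against 1.17 to 1.51 CPM, ela2 at 319 CPM against 130.1 to 157 CPM, ela3l at 457 CPM against 201 to 231 CPM and ela2l at 610.4 CPM against 272 to 300.4 CPM. At ZT21 it was below them for CP at 107 CPM against 149 to 157 CPM.

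The interaction passed the test for 48 of the genes examined, with 29 positive and 19 negative values. Some of these genes were picked for their large interactions, so the counts are only a description. Over all genes, 1.46% were positive and 0.851% negative in the interaction test. Treatment and library kit cannot be told apart in this test.

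Positive values among liver-secreted and plasma proteins were those of vtg7 (2.7, adjusted p = 0.0023), hpxa (5.11, adjusted p = 1.1e-04), apcs (1.33, adjusted p = 0.029) and serpina7 (1.81, adjusted p = 0.0031). GC target and clock genes with positive values were FKBP5 (3.1, adjusted p = 0.0019), KLF9 (1.41, adjusted p = 0.0022), BCL6 (0.99, adjusted p = 0.011), nfil3-6 (1.86, adjusted p = 0.015) and hlfa (0.87, adjusted p = 0.031). On the pituitary list nr4a1 had a positive value (0.9, adjusted p = 0.036). Eye-linked genes with positive values, which were lower by less under DEX than without it, were foxg1b (3.84, adjusted p = 9.7e-04), opn1sw2 (1.75, adjusted p = 0.013), BFSP1 (2.47, adjusted p = 0.0062) and cabp5a (3.17, adjusted p = 0.0066). On the metabolic list they were asl (0.99, adjusted p = 0.049), pfkmb (0.88, adjusted p = 0.036), pfkma (1.46, adjusted p = 0.0038), entpd3 (0.96, adjusted p = 0.012) and otc (2.4, adjusted p = 0.034). Other named genes were zgc:174259 (1.92, adjusted p = 0.027), jac11 (2.86, adjusted p = 0.0027), zgc:153932 (4.57, adjusted p = 1.2e-05), MPEG1 (ENSDARG00000043093) (1.5, adjusted p = 0.0048), CASQ1 (ENSDARG00000038716) (0.92, adjusted p = 0.036) and irf1a (1.55, adjusted p = 0.036). Genes known only by clone names were si:ch73-196i15.3 (1.85, adjusted p = 0.0034), si:ch211-151h10.2 (2.17, adjusted p = 0.027), si:dkey-7c18.24 (5.71, adjusted p = 3.1e-04) and si:dkey-23o4.6 (4.26, adjusted p = 0.0051).

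Negative values in the eye were those of crygm2d18 (-2.95, adjusted p = 0.0072), crygm2d14 (-2.66, adjusted p = 0.0058), crygm2d2 (-2.37, adjusted p = 0.0086), GNAT2 (-1.17, adjusted p = 0.012) and crygm2d10 (-2.19, adjusted p = 0.0021). In the digestive tract they were those of ela2 (-1.51, adjusted p = 0.017), ela3l (-1.34, adjusted p = 0.012), ela2l (-1.12, adjusted p = 0.024), amy2a (-1.02, adjusted p = 0.045), cel.2 (-2.07, adjusted p = 0.0022) and FABP1 (ENSDARG00000059227) (-1.06, adjusted p = 0.0064). Inflammation-linked genes and transcription factors with negative values were tnfaip2b (-2.98, adjusted p = 0.0067), mmp13a (-2.97, adjusted p = 0.024), CEBPB (-1.58, adjusted p = 0.020) and ptgs2a (-1.19, adjusted p = 0.014). The remaining ones were ENSDARG00000076693 (-2.09, adjusted p = 0.0012), SDR42E2 (-2.68, adjusted p = 9.8e-04), si:dkey-27b3.8 (-2.62, adjusted p = 0.029) and mthfd1l (-2.46, adjusted p = 0.0066).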

How the results depend on the processing

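Of the 191 genes examined, 0 called ones changed direction under the alternatives run, while 9 that were not called changed sign under at least 1, and 0 of these were called there. Thinned to the shallowest library, the differences were 0.00050 for NPY, 0.23 for OPN5, -0.015 for POMC, -0.039 for gnb1b and -0.23 for sc:d217. OPN5 (-0.00056 in the reported fit) was also at 0.020 with upper quartile scaling, 0.0077 with limma-voom, 0.0086 on the deposited log2 table and 0.033 without a time term. sc:d217 was at -0.0034 with limma-voom, and si:dkey-23o4.6 at -0.0051 with DESeq2 and -0.0078 on the log2 table. Without 1 time point the range was -0.20 to 0.26 for OPN5, -0.29 to 0.40 for POMC, -0.086 to 0.28 for fabp10a, -0.11 to 0.28 for nfil3-6, -0.15 to 0.12 for pck1, -0.10 to 0.29 for sc:d217 and -0.26 to 0.42 for si:dkey-23o4.6. Under RLE or upper quartile scaling, other filters, DESeq2, limma-voom, a robust spread or the deposited log2 table, between 95.8% and 99.7% of the calls under DEX that could be tested were kept, and 77.0% after thinning to the shallowest library. Each mutant library shares its time point with 1 wild-type library, so the time term made the analysis paired. Genes higher numbered 70 without this replicate block, 417 with a cosine and sine and 1781 with all 20 libraries, and genes lower 515 without a time term and 1977 with all 20 libraries. The share of lower genes among the calls was 56.0%, but 88.0% without a time term and 70.05% without ZT9. Positive interactions numbered 574 with DESeq2 and 543 with all 20 libraries, and negative ones 295 and 350.

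Leaving out 1 time point in turn gave 310 to 619 genes higher and 678 to 836 lower under DEX, 109 to 271 positive and 39 to 136 negative interactions, 1116 to 1450 higher and 1721 to 2111 lower in untreated strong mutants, 768 to 990 higher and 1278 to 1501 lower in untreated weak mutants, and 152 to 373 higher and 310 to 527 lower for the strong allele under DEX against the weak allele. The lowest counts of higher genes under DEX and of interactions came without ZT9. Between 55.6% and 71.9% of the calls under DEX were kept in these fits, which have fewer samples. The lens count stayed at 48 lower and the photoreceptor count between 52 and 55, while the exocrine count ranged from 7 to 17 and was 5 without a time term. Lower GC target genes numbered 1 to 3 without a time point and 9 with DESeq2. The fits for the untreated and weak-allele comparisons, and their RLE scaling, were added after the data were seen. Depth varied nearly 4-fold among the DEX libraries, and genes with few counts are limited by it.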

Other observations

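Groups formed after their values were seen held further differences under DEX. Of 50 proteasome genes tested, 5 were higher and 1 lower (median -0.21), and the higher ones included the immunoproteasome subunits psmb9a (log2 fold change 1.59), which kept its call whichever time point was left out, and psmb8 (1.40; adjusted p = 0.10 without ZT9 and 0.071 without ZT15). Of 27 antigen presentation genes, 2 were higher and 0 lower (median 0.58). Among 21 keratins 3 were higher and 1 lower (median 0.39), and among 19 matrix metalloproteinases 2 were higher and 2 lower (median -0.10). The transcription factor gene irf1a, which acts in the interferon response, differed by 1.65 under DEX and by 0.08 without it. These groups were chosen for their values, so their counts are a description. Over all genes tested under DEX, 3.48% were higher and 4.43% lower.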
